A study of Mus musculus with 6 samples.

Results

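The 10 genes described here encode core parts of the JAK-STAT5 pathway and its feedback arm: the Janus kinases Jak1 and Jak3, the transcription factors Stat3, Stat5a and Stat5b, the feedback inhibitors Cish, Socs1, Socs2 and Socs3, and the kinase Pim1. They were taken by gene symbol from a table of 55536 genes, each symbol matched 1 row, and all 10 were among the 14318 genes with enough counts to be tested. Primary OT-I T cells, taken from lymph nodes of mice labelled wildtype, received disulfiram (DSF, 3 libraries) or the solvent dimethyl sulfoxide (DMSO, 3 libraries) for 2 h. Both groups were kept in complete RPMI medium with fetal bovine serum, 2-mercaptoethanol and non-essential amino acids. The T cell receptor of OT-I cells is a transgene that recognises a peptide of ovalbumin, and DSF is a thiuram disulfide drug known to inhibit aldehyde dehydrogenases. The dose of DSF, the age of the mice and any stimulus or cytokine given to the cells are not in the labels used here. The labels call the libraries biological replicates without naming animals or cultures, so p-values measure the spread between these libraries, which may be technical.

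Cytokines of the common gamma chain family, such as interleukin 2, 7, 15 and 21, bring together receptor chains that carry JAK1 and JAK3. The kinases phosphorylate the receptor and then STAT proteins, chiefly STAT5A and STAT5B for interleukin 2, 7 and 15, and STAT3 for interleukin 21. Interleukin 6, from outside this family, also acts chiefly through STAT3. Phosphorylated STAT dimers enter the nucleus and bind sites built on a pair of inverted TTC and GAA triplets. CISH and the suppressors of cytokine signalling (SOCS) are encoded by targets of STATs and shut the receptors off again, and PIM1 is a serine/threonine kinase, also encoded by a STAT5 target, that promotes survival and growth. In CD8 T cells this pathway drives proliferation after antigen and maintains memory cells.

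The promoters of 3 feedback genes are shown because one of the genes did not pass the test, one rose and one fell, and because they differ in the STAT-type motif TTCNNNGAA, printed in capitals. The motif is its own reverse complement, so a search of one strand covers both, and its copies in Cish do not overlap. The sequences run 5′ to 3′ on the strand of the gene and come from RefSeq (GRCm38.p6), with 250 bases before and 50 after an annotated start. They lie at chr9:107296409-107296708 (plus strand) for Cish, chr11:117969317-117969616 (minus strand) for Socs3 and chr16:10785487-10785786 (minus strand) for Socs1.
Cish: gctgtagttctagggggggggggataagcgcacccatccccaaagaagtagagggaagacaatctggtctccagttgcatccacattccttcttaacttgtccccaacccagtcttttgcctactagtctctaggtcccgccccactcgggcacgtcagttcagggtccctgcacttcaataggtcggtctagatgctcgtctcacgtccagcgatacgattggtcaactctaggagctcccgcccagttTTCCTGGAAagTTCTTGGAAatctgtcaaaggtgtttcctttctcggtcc
Socs3: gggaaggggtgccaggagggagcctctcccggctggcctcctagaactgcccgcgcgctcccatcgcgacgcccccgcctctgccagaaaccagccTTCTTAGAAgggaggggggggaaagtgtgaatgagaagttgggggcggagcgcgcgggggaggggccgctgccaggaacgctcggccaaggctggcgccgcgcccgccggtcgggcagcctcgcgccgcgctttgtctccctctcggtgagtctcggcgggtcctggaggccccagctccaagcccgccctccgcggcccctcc
Socs1: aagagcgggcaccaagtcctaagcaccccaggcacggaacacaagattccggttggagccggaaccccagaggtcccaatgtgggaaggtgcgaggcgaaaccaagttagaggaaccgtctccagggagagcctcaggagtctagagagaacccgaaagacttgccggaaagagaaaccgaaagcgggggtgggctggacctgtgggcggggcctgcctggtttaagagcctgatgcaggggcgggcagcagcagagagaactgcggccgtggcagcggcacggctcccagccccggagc
The Cish window held 2 copies, the first beginning at the start base and the second 11 bases after it. Socs3 held 1 copy that began 154 bases before the start, and Socs1 held 0. These starts are those of RefSeq. The Cish and Socs3 windows lie wholly inside the GENCODE positions of those genes given below, so by GENCODE their copies lie within the genes. The Socs1 window runs past the 5′ end of its GENCODE position. Windows were found for 9 of the 10 genes, 12 windows in all, and only those of Cish and Socs3 held the motif. The gene without a window was Socs2, which was therefore not searched. Over all 32851 promoter windows of that length 8.3% held at least 1 copy and 0.457% held 2 or more. A match says only that these letters are present.

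Library totals were between 18082264 and 20951998 estimated counts with DSF and between 18528236 and 21893720 in DMSO. A count of 3 in a library, taken as the floor, was worth 0.137 to 0.166 CPM, the count scaled to a common library size, and each of the 10 genes lay far above it, with 167 counts as the lowest value of any of them in a library. Levels are given in TPM, which scales counts by gene length and library size. Markers of T cells summed to 1096 to 1117 TPM with DSF and 1157 to 1215 TPM in DMSO over 5 genes, of which Cd8a and Trac were lower with DSF. Cd8a had 161 to 165 TPM with DSF and 188 to 193 TPM in DMSO, while Cd4 and Foxp3 together stayed at 0.6 to 0.98 TPM with DSF and 0.54 to 0.66 TPM in DMSO, the pattern of CD8 T cells. The 3 B cell markers summed to 12.9 to 14.8 TPM with DSF and 12.1 to 14.1 TPM in DMSO, and 2 natural killer cell markers to 1.68 to 2.86 TPM with DSF and 1.79 to 2.21 TPM in DMSO. The 5 myeloid and dendritic cell markers summed to 15.8 to 18.6 TPM with DSF and 18.3 to 19.2 TPM in DMSO, and 1 of them, the dendritic cell marker Xcr1, was lower with DSF. The part of other cell types in the results below was not tested. In such bulk RNA, fewer cells of a type and less RNA per cell cannot be told apart. Every direction given depends on taking the code DO in the deposited headers for DMSO and DF for DSF.

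By edgeR's quasi-likelihood test with Benjamini-Hochberg adjustment over all tested genes, 3 of the 10 genes rose with DSF (Socs3, Socs2 and Pim1), 3 fell (Socs1, Stat3 and Stat5a) and 4 did not pass (Jak1, Jak3, Stat5b and Cish). Of all genes tested, 22.9% passed, 11.6% as higher and 11.3% as lower. No change among the 10 exceeded 1.29-fold upward or went below 0.8 of the DMSO level. Among all tested genes the share that passed under the alternative settings was 22.8% with RLE scaling, 23.1% with library totals, 18.4% with DESeq2, 11.9% with no filter, 24.5% with at least 10 counts in all libraries, 26.7% with the replicate block and 9.65% with limma on log2(TPM + 1). It was 18.6, 18.3 and 17.6% without DSF library 1, 2 or 3, and 20.2, 18.5 and 20.3% without DMSO library 1, 2 or 3. The median log2 fold change of the 10 genes was -0.03, beside -0.0027 over all tested genes. In CPM the libraries of the 2 groups did not overlap in 7 of the 10 genes, against 35.4% of all tested genes, and in TPM they did not overlap in 5, against 29.6% of all tested genes.

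**Figure D1:**
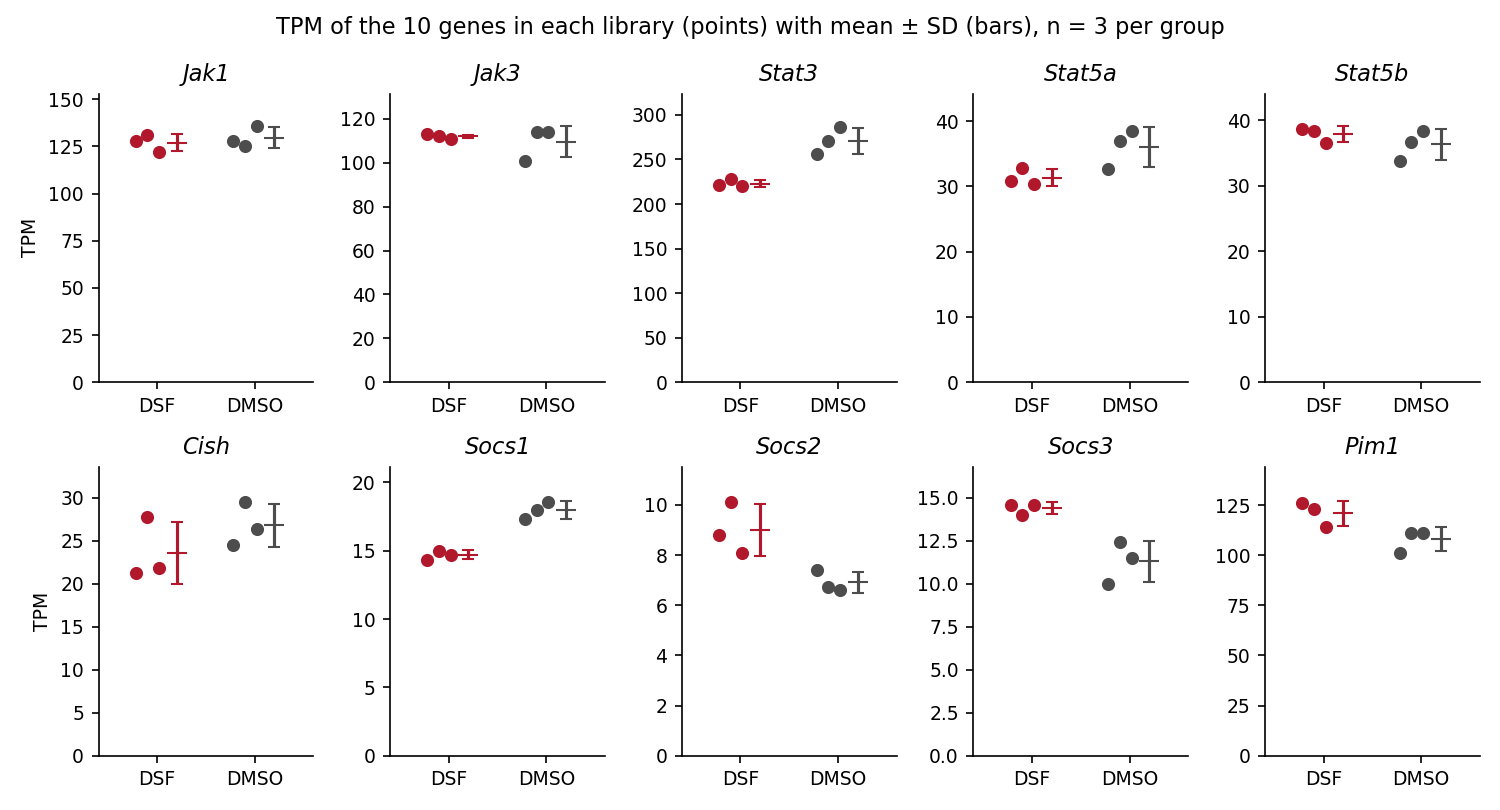
Level of each of the 10 genes in TPM (vertical axes, each starting at 0), with 1 point per library, DSF in red on the left and DMSO in grey on the right, and bars for mean ± SD (n = 3 per group). Stat3 and Socs1 lie lower in all DSF libraries than in all DMSO libraries, Socs2, Socs3 and Pim1 lie higher, and the groups overlap in the other 5 genes.

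The transcripts spanned a wide range of levels, which can be compared between genes only per length, in TPM. With DSF the order ran from Stat3 (223 ± 4.21 TPM) over Jak1 (127 ± 4.38 TPM), Pim1 (121 ± 6.25 TPM), Jak3 (112 ± 0.625 TPM), Stat5b (37.9 ± 1.19 TPM), Stat5a (31.3 ± 1.31 TPM), Cish (23.6 ± 3.61 TPM), Socs1 (14.7 ± 0.342 TPM) and Socs3 (14.4 ± 0.354 TPM) down to Socs2 (9 ± 1.02 TPM), each as mean ± SD of 3 libraries. Jak1 and Pim1 overlapped in their libraries, and so did Socs1 and Socs3, while the other neighbours did not. In DMSO the order was Stat3, Jak1, Jak3, Pim1, Stat5b, Stat5a, Cish, Socs1, Socs3 and Socs2, from 271 ± 14.9 TPM to 6.91 ± 0.433 TPM. There Jak3 and Pim1 overlapped, and so did Stat5b and Stat5a. Among tested genes ranked by TPM, Jak3, Pim1, Jak1 and Stat3 stood at percentiles 92.1 to 96.8, whereas Socs2 stood at percentile 40.9.

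The Janus kinases at the head of the pathway showed no change that passed. Jak1, the kinase borne by the signalling chains of most of these receptors (chr4:101152367-101265282), had 128, 131 and 122 TPM with DSF, against 128, 125 and 136 TPM in DMSO. The libraries of the groups overlapped in TPM, although in CPM each DSF library, at 446 to 456, lay below each DMSO library, at 457 to 471. Its log2 fold change was -0.04 (95% interval -0.1 to 0.03, edgeR's adjusted p = 0.466). Jak3, which pairs with the common gamma chain (chr8:71676296-71690575), had 113, 112 and 111 TPM with DSF, against 101, 114 and 114 TPM in DMSO, with 1 low DMSO library. Its log2 fold change was -0.02 (95% interval -0.08 to 0.05, edgeR's adjusted p = 0.811). For both kinases the interval leaves room only for changes of at most 0.1 on the log2 scale. Exons of Jak1 overlap Raver2 on the opposite strand and those of Jak3 overlap Insl3 on the same strand, so these counts are uncertain to that extent.

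Stat3, the most abundant of the 10 transcripts, fell by 18.6% with DSF. It had 221, 228 and 219.7 TPM with DSF, against 256, 271 and 286 TPM in DMSO. All DSF libraries were below all DMSO libraries, in TPM and in CPM. The log2 fold change was -0.3 ± 0.031 (SE, edgeR's adjusted p = 5.78e-09), and no alternative setting ended the call. In CPM it averaged 691 ± 10.2 with DSF and 849 ± 19.4 in DMSO (SD, n = 3 each).

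Of the STAT5 paralogs, Stat5a passed the test and Stat5b did not. Stat5a fell by 17.2%, with 81.1, 84.8 and 81.1 CPM with DSF, against 92.6, 101 and 104 CPM in DMSO, and the groups did not overlap. Its log2 fold change was -0.27 ± 0.049 (SE, edgeR's adjusted p = 6.96e-05). On the TPM scale, at 30.8, 32.8 and 30.4 TPM with DSF against 32.6, 36.9 and 38.5 TPM in DMSO, the groups overlapped by 1 library each, and limma on log2(TPM + 1) did not call it (adjusted p = 0.154). Stat5b had 38.7, 38.4 and 36.5 TPM with DSF, against 33.7, 36.7 and 38.3 TPM in DMSO, with groups that overlapped. Its log2 fold change was 0.03 (95% interval -0.06 to 0.11, edgeR's adjusted p = 0.714).

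The ratio of Stat5a to Stat5b within a library was 0.794, 0.854 and 0.831 with DSF, against 0.966, 1.004 and 1.005 in DMSO, on the TPM scale. Every DSF library lay below every DMSO library, so the 2 transcripts were about level in DMSO and Stat5a made up 44.3 to 46.1% of their sum with DSF. The log2 ratio differed by -0.26, with an exact two-sided permutation p = 0.1, the smallest that 3 against 3 libraries allow, and p = 0.2 adjusted over the 2 ratios tested. With estimated counts in place of TPM, a setting chosen after seeing the data, the difference was -0.3. The ratio of Jak3 to Jak1 averaged 0.883 ± 0.0282 with DSF and 0.846 ± 0.0576 in DMSO (SD, n = 3 each, exact permutation p = 0.4), and its groups overlapped. Stat5a and Stat5b are near-identical copies in parts of their coding sequence, and part of the estimated counts in each library are not whole numbers. The authors' counting could split reads between these 2 genes, and its part in the ratios was not tested.

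**Figure D2:**
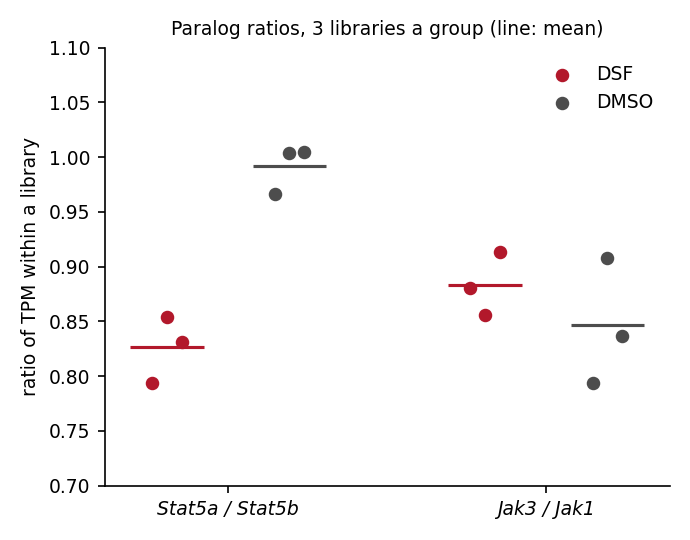
Ratio of TPM within each library (vertical axis, no unit, drawn from 0.7 to 1.1) for Stat5a over Stat5b and for Jak3 over Jak1, with DSF in red left of DMSO in grey, 1 point per library and a line at the mean. For Stat5a over Stat5b the DSF points lie at 0.794 to 0.854 and the DMSO points at 0.966 to 1.005, while for Jak3 over Jak1 the groups overlap.

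These 3 STAT genes stand side by side on chromosome 11 of GRCm38. Stat5b (chr11:100780731-100850724, minus strand) and Stat5a (chr11:100859351-100885169, plus strand) point away from each other across a gap of 8626 bases. Stat5a and Stat3 (chr11:100885098-100939540, minus strand) point toward each other and their 3′ ends share 72 bases on opposite strands. The sources used here do not say if reads were counted by strand, so reads from those 72 bases cannot be assigned with certainty. Within this row of neighbours, the 2 genes that meet at their ends were lower with DSF and the third did not pass.

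The feedback inhibitors went in different directions. Socs3 and Socs2 rose, Socs1 fell and Cish did not pass. SOCS3 binds the gp130 chain of the interleukin 6 receptor family, SOCS1 inhibits Janus kinases directly and limits gamma chain cytokine and interferon signals, and CISH and SOCS2 are close relatives best known as inhibitors of STAT5-activating receptors.

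Socs3 (chr11:117966079-117970047) had 24.7, 25.3 and 25.4 CPM with DSF, against 18.7, 19.8 and 19.8 CPM in DMSO. The replicates were close in both groups, which did not overlap. This was a 1.29-fold rise, at a log2 fold change of 0.37 ± 0.069 (SE, edgeR's adjusted p = 0.000127). On the TPM scale it stood at 14.4 ± 0.354 with DSF and 11.3 ± 1.19 in DMSO (SD, n = 3 each), where limma gave an adjusted p = 0.0563.

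Socs2 (chr10:95385362-95417180), the least abundant of the 10, had 11.6, 12 and 11.9 CPM with DSF, against 9.96, 9.73 and 8.26 CPM in DMSO. The DMSO library 3 was the lowest, and the groups did not overlap. The rise was 1.27-fold, at a log2 fold change of 0.35 ± 0.1 (SE, edgeR's adjusted p = 0.0119). The call ended without DMSO library 3 (edgeR's adjusted p = 0.0779), with DESeq2 (adjusted p = 0.077) and with limma on TPM (adjusted p = 0.079), and in the authors' deposited table its adjusted p was 0.0805.

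Socs1 (chr16:10782240-10785536) had 29.2, 30.7 and 30.3 CPM with DSF, against 37.0, 37.7 and 38.1 CPM in DMSO. All DSF libraries were lower than all DMSO libraries, by a margin far above the spread in either group. It fell to 0.8 of its DMSO level, at a log2 fold change of -0.32 ± 0.058 (SE, edgeR's adjusted p = 7.3e-05), and no alternative setting ended the call.

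Cish (chr9:107296026-107302784) had 50.6, 55.6 and 49.6 CPM with DSF, against 54.6, 61.5 and 56.3 CPM in DMSO. Library 2 was the highest of each group, and the groups overlapped. Its log2 fold change was -0.15 ± 0.055 (SE, 95% interval -0.26 to -0.04), just outside the threshold with edgeR's adjusted p = 0.0518. It passed in 5 alternatives, as lower with DSF: with library totals in place of scaling factors (adjusted p = 0.0404), with no filter on low counts (adjusted p = 0.0475), with the replicate number as a block (adjusted p = 0.0136), without DSF library 2 (adjusted p = 0.0206) and without DMSO library 1 (adjusted p = 0.0219), all by edgeR. Exons of Cish overlap Gm17040 and Gm17041 on the opposite strand.

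In sum the 4 inhibitors held 59, 66.9 and 59.3 TPM with DSF, against 59.3, 66.6 and 63.1 TPM in DMSO, and these sums overlapped. The shares of Socs1, Socs2 and Socs3 in that sum did not overlap between the groups, that of Cish did, and these shares were not tested. The same was so for the TPM of these genes, from which the shares are made, so they are not a separate result. In TPM the groups did not overlap in 29.6% of all tested genes. Socs1 made up 22.4 to 24.8% of the sum with DSF, against 27.1 to 29.5% in DMSO, and Socs3 made up 20.9 to 24.7% with DSF, against 16.9 to 18.6% in DMSO. Socs2 made up 13.7 to 15.1% with DSF, against 10.1 to 12.5% in DMSO.

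Pim1 (chr17:29490753-29496112) had 181, 187 and 193 CPM with DSF, against 165, 178 and 174 CPM in DMSO. The groups did not overlap, but the lowest DSF library lay close to the highest DMSO library. Its rise of 1.09-fold was the smallest of the changes that passed, at a log2 fold change of 0.12 ± 0.039 (SE, edgeR's adjusted p = 0.0226). Leaving out DSF library 2, DSF library 3 or DMSO library 1 ended the call (edgeR's adjusted p = 0.0641, 0.16 and 0.0948), as did limma on TPM (adjusted p = 0.116). Exons of Pim1 overlap Gm26885 on the opposite strand.

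**Figure D3:**
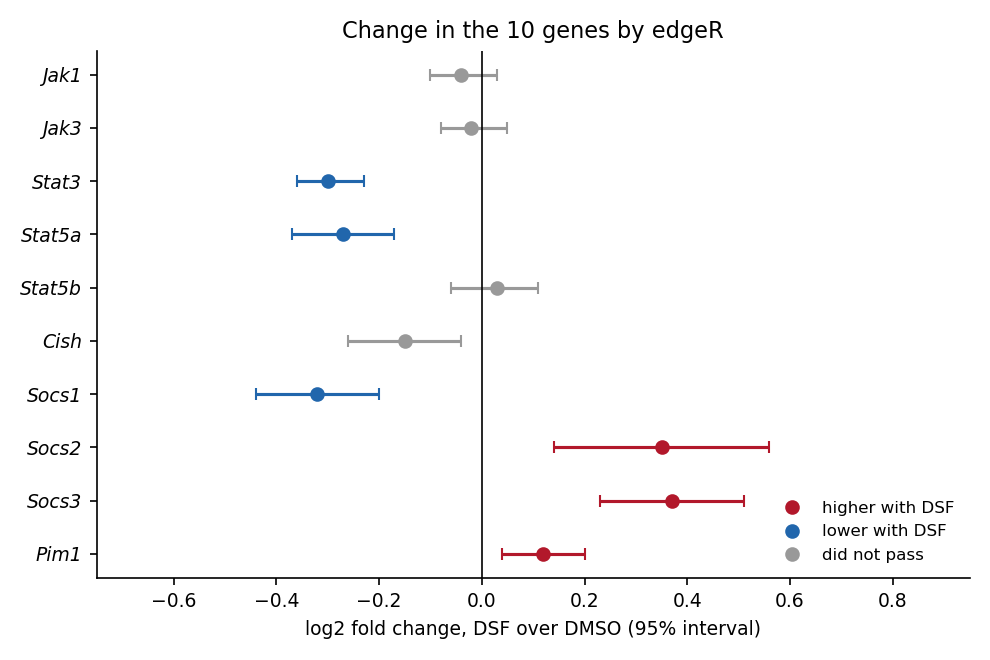
Log2 fold change of DSF over DMSO from edgeR (horizontal axis) for the 10 genes in order of their role, with 95% intervals, in red for genes higher with DSF, blue for lower and grey for those that did not pass. Stat3, Stat5a and Socs1 lie between -0.32 and -0.27, Socs2 and Socs3 at 0.35 and 0.37, and Pim1 at 0.12.

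The rest of the pathway was described from lists of 54 genes, of which 48 were tested, 8 rose and 15 fell, beside 11.6% higher and 11.3% lower among all genes tested. Of 6 other Janus kinases and STATs, 1 rose, 1 fell and 4 did not pass. The gene that rose was Jak2, a kinase used by the interferon gamma and interleukin 12 receptors. It rose 1.11-fold, at 98.1 ± 3.01 CPM with DSF and 88.0 ± 1.34 CPM in DMSO (edgeR's adjusted p = 0.0102). Jak2 no longer passed when DSF library 3 was left out (edgeR's adjusted p = 0.0771) or with limma on TPM (adjusted p = 0.071).

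None of the 4 other SOCS genes, Socs4, Socs5, Socs6 and Socs7, passed by edgeR, DESeq2 or limma, and 0 had an unadjusted p under 0.05 by any of these tools. Their edgeR log2 fold changes ran from -0.03 to 0.1. Of the other PIM kinase genes, Pim2 fell to 0.831 of its DMSO level, with 81.4 ± 0.558 CPM with DSF and 97.9 ± 1.28 CPM in DMSO (edgeR's adjusted p = 2.51e-05). Pim3 stood at 20.1 ± 1.2 CPM with DSF and 22.3 ± 2.78 CPM in DMSO and did not pass. Pim1 and Pim2, both known as STAT5 targets, were thus on opposite sides of 0, at log2 fold changes of 0.12 and -0.27.

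The ligands of the gamma chain family were hardly detected. Il2, Il4, Il7, Il9, Il15 and Il21 were all removed by the filter on low counts, and the highest count of any of them in a library was 8, for Il15 in DSF library 3. Il4 had 0 counts in all 6 libraries, where a floor of 3 counts allows up to 0.166 CPM in the shallowest.

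Of 14 chains of receptors that signal through JAK1 or JAK3, 5 rose, 4 fell and 5 did not pass, at a median log2 fold change of -0.01. Not every one of these chains itself carries JAK1 or JAK3. Among all genes tested, 11.6% were higher and 11.3% lower. Il2rb, the chain that interleukins 2 and 15 share, fell to 0.677 of its DMSO level, at 983 ± 46.2 CPM with DSF and 1452 ± 62.7 CPM in DMSO (edgeR's adjusted p = 5.91e-13). Il7r, the interleukin 7 receptor, fell to 0.745, at 159.9 ± 4.19 CPM with DSF and 215 ± 2.64 CPM in DMSO (edgeR's adjusted p = 8.74e-11). Il2ra had 778 ± 3.24 CPM with DSF and 795 ± 1.18 CPM in DMSO, and the common gamma chain gene Il2rg had 229.7 ± 2.55 CPM with DSF and 237 ± 4.5 CPM in DMSO. Neither passed edgeR's test (adjusted p = 0.514 and 0.383). In both, every DSF library lay below every DMSO library in CPM, though not in TPM.

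Il6ra, the binding chain for interleukin 6, showed the largest change of all genes in these lists, a 2.36-fold rise. It had 12.4 ± 0.635 CPM with DSF and 5.26 ± 0.185 CPM in DMSO (SD, n = 3 each), at a log2 fold change of 1.24 ± 0.11 (SE, edgeR's adjusted p = 2.77e-10). Ifnar1, a chain of the type I interferon receptor, rose 1.32-fold, at 265 ± 3.83 CPM with DSF and 201 ± 3.27 CPM in DMSO (edgeR's adjusted p = 7.67e-11). The other chains were named after their values were seen. Il6st, the gp130 chain, rose 1.28-fold (edgeR's adjusted p = 2.26e-06), Il27ra rose 1.14-fold (adjusted p = 0.0204) and Ifngr1 rose 1.09-fold (adjusted p = 0.00661), whereas Il21r fell to 0.741 (adjusted p = 5.6e-10) and Il10ra fell to 0.646 (adjusted p = 2.78e-09).

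Split by family, also after the values were seen, 3 of 8 chains of gamma chain receptors fell and 0 rose, while 3 of 3 chains of gp130 receptors rose. Of 3 interferon and interleukin 10 receptor chains, 2 rose and 1 fell. Among all genes tested, 11.6% were higher and 11.3% lower. No test compared the families. The Ifngr1 call ended without DMSO library 3 (edgeR's adjusted p = 0.0539), and Il27ra passed neither when DSF library 1 or 3 was left out (edgeR's adjusted p = 0.068 and 0.0976) nor when DMSO library 1 or 2 was (adjusted p = 0.0591 and 0.0607). Il27ra also failed with DESeq2 (adjusted p = 0.0991) and with limma on TPM (adjusted p = 0.0964). Exons of Il6ra overlap Gm42809 and those of Il27ra overlap Palm3, in each case on the opposite strand.

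Among 11 other negative regulators of the pathway, 2 rose, 3 fell and 6 did not pass, beside 11.6% higher and 11.3% lower among all genes tested. Ptpn1 and Ptpn6, which encode the tyrosine phosphatases PTP1B and SHP-1, fell to 0.826 and 0.865 of their DMSO levels, at 170 ± 5.64 and 157 ± 5.29 CPM with DSF and 206 ± 4.62 and 182 ± 1.9 CPM in DMSO (edgeR's adjusted p = 8.37e-07 and 7.26e-05). Sh2b3, the gene for the adaptor LNK, fell to 0.849, at 38.8 ± 0.599 CPM with DSF and 45.6 ± 3.18 CPM in DMSO (edgeR's adjusted p = 0.00196). Pias3, the gene for an inhibitor of activated STAT3, rose 1.27-fold, at 25.9 ± 1.6 CPM with DSF and 20.4 ± 1.05 CPM in DMSO (edgeR's adjusted p = 0.000444). Pias4, of the same family and named after its value was seen, rose 1.15-fold (edgeR's adjusted p = 0.0153), a call that ended when DSF library 2 or 3 was left out (adjusted p = 0.0577 and 0.0805), with DESeq2 (adjusted p = 0.0844) and with limma on TPM (adjusted p = 0.162). Ptpn1 and Sh2b3 did not pass with limma on TPM (adjusted p = 0.128 and 0.15). Exons of Ptpn6, Sh2b3 and Pias3 overlap a gene on the opposite strand.

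Of a list of 12 other genes known to respond to STAT5 in T cells, 6 fell and 0 rose, beside 11.3% lower and 11.6% higher among all genes tested. The median log2 fold change was -0.15, beside -0.0027 over all tested genes. At an unadjusted p under 0.05, 0 were higher by edgeR, DESeq2 or limma. These counts depend on which targets the list holds, and Bcl6, which STAT5 is known to silence, is counted like the others. The list leaves out Cish and the PIM and SOCS family genes. Among those, Pim1, Socs2 and Socs3 rose, at log2 fold changes of 0.12, 0.35 and 0.37. Pim2 and Socs1 fell, at -0.27 and -0.32. Cish, at -0.15, did not pass, nor did the other genes of these families. Myc, the growth-promoting transcription factor gene, fell to 0.605 of its DMSO level, with 66.8 ± 3.81 CPM with DSF and 110.5 ± 5.16 CPM in DMSO (edgeR's adjusted p = 5.74e-13). Dusp5, which encodes a phosphatase of ERK, fell to 0.619, with 117 ± 6.54 CPM with DSF and 189.5 ± 4.64 CPM in DMSO (edgeR's adjusted p = 2.24e-14). The lymphotoxin gene Lta fell to 0.734 and the cell cycle kinase gene Cdk6 to 0.811 (edgeR's adjusted p = 3.48e-05 and 6.5e-08). Bcl2l1, the gene for the survival protein BCL-XL, and Bcl6, a repressor that STAT5 is known to silence, were the other 2 that fell, at log2 fold changes of -0.24 and -0.26 (edgeR's adjusted p = 0.00518 and 0.0181), and were named after their values were seen.

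The other 6 genes of the list did not pass. Bcl2, Mcl1, Ccnd2, Ccnd3, Osm and Il2ra had log2 fold changes between -0.07 and 0.01. Bcl2l1 no longer passed when DSF library 3 was left out (edgeR's adjusted p = 0.0693), nor did Bcl6 when DSF library 1, DSF library 3 or DMSO library 3 was (adjusted p = 0.0781, 0.072 and 0.129). DESeq2 did not call Bcl6 (adjusted p = 0.114), and limma on TPM called none of Bcl6, Bcl2l1 and Cdk6 (adjusted p = 0.239, 0.156 and 0.0817). Exons of Dusp5, Cdk6 and Bcl6 overlap a gene on the opposite strand.

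**Figure D4:**
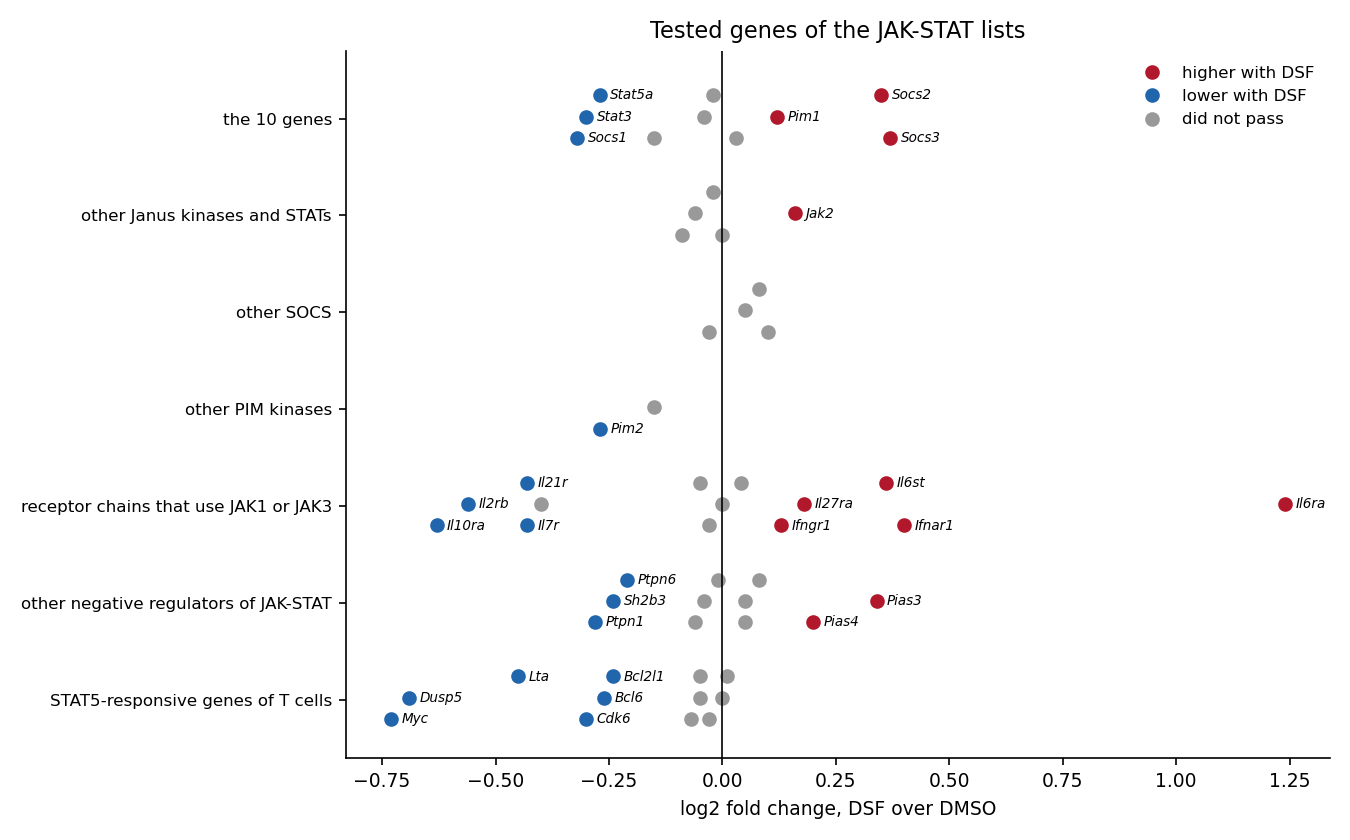
Log2 fold change of DSF over DMSO from edgeR (horizontal axis) for tested genes of each list (rows), in red for genes higher with DSF, blue for lower and grey for those that did not pass, with names of those that passed and points spread vertically within a row only for legibility. Il6ra at 1.24 and Myc at -0.73 mark the ends, and the row of STAT5-responsive genes holds no red point.

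The genes whose pattern over the 6 libraries was most like that of Socs3 and Socs1 were found by the Euclidean distance between log2 CPM values centred on the DMSO mean, among 9620 candidates. With this measure, near neighbours have similar fold changes by construction. Nearest to Socs3 came Anxa11, Sept11, Lnx2 and Ptpn23, at distances of 0.054 to 0.069 and log2 fold changes of 0.34 to 0.4. Nearest to Socs1 came Pag1, Pisd, Stat3 and Cblb, at distances of 0.049 to 0.055 and log2 fold changes between -0.35 and -0.3. Stat3 was thus the only one of the 10 genes among these 8 neighbours.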

How the data were processed

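RNA was measured in 3 DSF and 3 DMSO libraries, made with a SMARTER kit for mRNA per the labels' protocols. The submitters' processing notes name the mouse build GRCm38 (mm10). No source used here gives the aligner, the counter, the annotation or the use of strand. The table that the authors deposited holds estimated counts per gene and library, not normalised, of which 12.1 to 12.9% per library are not whole numbers. Per the file headers it also holds TPM per library and group, and the authors' log2 fold changes and adjusted p-values. Library columns carry a letter and a number. Averaging the A columns gives the deposited DO mean in TPM, and averaging the B columns the DF mean, in all 55536 genes within 0.0001 TPM. DO was taken for DMSO and DF for DSF by their letters. Of the columns with values per library, 0 were left unused.

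Estimated counts were rounded, filtered with filterByExpr, scaled by TMM (factors 0.99524 to 1.0053) and fitted with edgeR 4.0.16 (R 4.3.3, robust quasi-likelihood) on group alone. A gene was called at an adjusted p under 0.05 over 14318 genes. Standard errors are the absolute log2 fold change over the root of the F statistic. DESeq2 1.42.0, and limma 3.58.1 on log2(TPM + 1) for genes of at least 1 TPM, served as alternatives, beside other scalings and filters, a replicate block and leaving out each library. The fits were tested on simulated data. That check required recovery only of changes larger than any among the 10 genes, and only by edgeR and DESeq2. It thus says nothing on changes as small as those of the 10 genes. The 10 genes, the lists and the tests were chosen with earlier results of these data known. From each list, up to 4 called genes of at least 5 CPM with the smallest p were named. Genes that did not pass but are given with values, such as Pim3, Il2ra and Il2rg, fall outside this rule. Pairs of replicate libraries gave 2.165 to 4.011 as chi-square over its degrees of freedom, in genes of at least 20 counts, so each was kept. Floors cover counting error only. A gene of the lists is counted but not reported here. Gene positions came from GENCODE M21, which holds 55450 of the deposited identifiers with the same symbol, and promoter sequences from RefSeq.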

Additional observations from a re-analysis of the deposited data

How the results depend on the processing

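Across 13 alternatives, Stat3, Socs1, Jak1 and Stat5b kept both their direction and their side of the threshold, and each of the other members kept its direction except Jak3, whose log2 fold change turned to 0.03 with limma on log2(TPM + 1) and ran from -0.04 to 0.01 when 1 library was left out, above 0 only without DMSO library 2. With limma on log2(TPM + 1), 1259 genes passed (746 higher and 513 lower), 0 members were higher and 2 lower (3 and 3 at an unadjusted p under 0.05), and 15 genes of the pathway lists passed, 5 of them higher. The cause was not tested. Leaving out each library in turn gave 2565 to 2972 called genes (1334 to 1595 higher and 1231 to 1432 lower), 2 to 3 members higher and 3 to 4 lower, and 18 to 23 list genes, of which 5 to 8 were higher and 13 to 15 lower. The lowest number of higher list genes, 5, came without DSF library 3. The log2 difference of the Stat5a to Stat5b ratio then ran from -0.29 to -0.24 and that of Jak3 to Jak1 from 0.02 to 0.12. DESeq2 called 2339 genes, 2 members higher and 3 lower. With library totals in place of scaling factors, 1574 genes were higher and 1731 lower. With the replicate block 3829 genes, 3 members higher and 4 lower passed, Cish being the one added. Libraries of the same number deviated together only weakly (r = 0.0454, 0.0349 and 0.0547 over genes), all under 0.1 but each best with its own number. The labels do not say that the numbers pair the libraries, so the main fit did not take them as pairs. These correlations do not settle if the libraries were paired. With 3 libraries a group, the exact permutation test cannot go below p = 0.1.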

Other observations

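TPM and CPM of the same gene did not keep a fixed ratio over libraries. For Socs2 the TPM divided by the CPM was 0.755, 0.841 and 0.68 with DSF, and 0.743, 0.691 and 0.798 in DMSO. For Pim1 it was 0.694, 0.66 and 0.59 with DSF, and 0.612, 0.622 and 0.64 in DMSO. For Jak1 it stayed between 0.274 and 0.29 with DSF and between 0.274 and 0.289 in DMSO. The source of the shifts was not tested. Stat5a, whose groups overlapped in TPM but not in CPM, had a ratio of 0.374 to 0.387 with DSF and 0.352 to 0.369 in DMSO.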
